A study of Homo sapiens with 3 samples.

Results

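The genes described here are the alpha and beta tubulin isotypes of Cal62 cells, an established human thyroid cancer cell line. They were chosen by symbol, as the rows of the deposited gene table whose Ensembl identifiers map to TUBA1A, TUBA1B, TUBA1C, TUBA4A, TUBB, TUBB2A, TUBB2B, TUBB3, TUBB4B and TUBB6. These 10 genes, 4 alpha and 6 beta isotypes, were found among 58333 genes. Poly(A)+ RNA was sequenced from cells transfected with a control siRNA (siControl) or with 1 of 2 siRNAs against ADAR1 (siADAR1 #1 and siADAR1 #2), all with Lipofectamine RNAiMAX and with 2 replicates each. Every group thus shared the cell line and the transfection reagent, and no untransfected cells were examined here. The reads assigned to genes numbered 30114840 in the smallest library and 50029763 in the largest. Values below are normalized counts, which are reads divided by the size factor of each library.

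Microtubules are hollow polymers of tubulin, a dimer of an alpha and a beta subunit, and they form the mitotic spindle, the tracks of intracellular transport and the core of cilia. Vertebrate genomes carry several genes for each subunit. Their products, the isotypes, are alike in the folded body, and many differ in the acidic carboxy-terminal tail, which projects from the microtubule surface and is the site of glutamylation and of removal of the last tyrosine. TUBA1B, TUBA1C, TUBB, TUBB4B and TUBB6 are made in many tissues, whereas TUBA1A, TUBB2A, TUBB2B and TUBB3 are best known from developing neurons. Cells also degrade tubulin mRNAs when free tubulin dimers are in excess, through a factor that recognizes the nascent protein. ADAR1, the enzyme silenced in these cells, converts adenosine to inosine in double-stranded RNA.

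The tail-coding ends of 6 isotypes are shown because the tail is the part of the protein that many of the modifying enzymes counted below act on. Each line gives the last 60 bases of the coding sequence with the stop codon, 5′ to 3′ on the coding strand, from the GENCODE release 44 transcripts (GRCh38). Capitals mark in-frame glutamate codons (GAA or GAG), the residues that carry glutamate side chains.
TUBA4A: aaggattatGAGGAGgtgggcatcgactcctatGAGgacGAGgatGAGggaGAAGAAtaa
TUBB: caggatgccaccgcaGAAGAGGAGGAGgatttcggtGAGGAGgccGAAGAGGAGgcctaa
TUBB4B: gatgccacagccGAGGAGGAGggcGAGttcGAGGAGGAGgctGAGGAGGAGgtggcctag
TUBB2A: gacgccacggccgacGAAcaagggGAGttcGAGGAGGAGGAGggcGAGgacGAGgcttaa
TUBB2B: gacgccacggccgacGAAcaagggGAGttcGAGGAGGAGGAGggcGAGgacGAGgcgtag
TUBB3: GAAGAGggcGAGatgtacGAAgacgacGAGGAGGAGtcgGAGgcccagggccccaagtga
TUBA1A and TUBA1B were 97.2% identical over the coding sequence. TUBB2A and TUBB2B were 98.1% identical over the coding sequence and 96.7% in the last 60 bases. TUBB4B and TUBB, the abundant beta isotypes, were 84.4% identical. The last sense codon of TUBA4A encoded glutamate. Glutamate codons in the printed windows numbered between 7 in TUBA4A and 10 in TUBB4B.

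The members lie on chromosomes 2, 6, 9, 12, 16 and 18, and the main transcript of each has 4 exons. The alpha genes TUBA1B (chr12:49127782-49131397), TUBA1A (chr12:49184686-49189080) and TUBA1C (chr12:49188736-49274600) form a cluster, and TUBA4A stands apart (chr2:219249710-219277902). TUBB2A (chr6:3153497-3157544) and TUBB2B (chr6:3223324-3231730) are neighbours, with TUBB (chr6:30717435-30725538) elsewhere on the chromosome. TUBB3 (chr16:89921392-89938761), TUBB4B (chr9:137241287-137243707) and TUBB6 (chr18:12307669-12344320) are single. Some members cannot be counted cleanly with 75-base reads. Of the 75-base windows of the main transcript of TUBB2A, 56.0% also occur in TUBB2B, and 46.8% of those of TUBB2B occur in TUBB2A. For TUBA1A the share found in TUBA1B was 25.5%, and no window of TUBB6 was shared with another gene. Every member except TUBB6 shared windows with some other gene, up to 92.6% for TUBB3 and 77.2% for TUBA1B. Values of these members, TUBB2A, TUBB2B and TUBA1A among them, are therefore uncertain where reads were split between genes.

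In the control cells the tubulin mRNA pool was dominated by 3 genes. Per kilobase of exon sequence, TUBA1B was the most abundant member at 24720 ± 21.2 normalized counts per kilobase (SD, n = 2), followed by TUBB at 20020 ± 403 and TUBB4B at 18790 ± 537. TUBA1C (6075 ± 91.9) and TUBB6 (2827 ± 143) came next on this scale. TUBB2A (481.0 ± 22.2) and TUBA4A (478.6 ± 9.33) lay side by side and their libraries overlapped, which was the only pair of neighbours in the siControl order to do so. TUBB3 (196.9 ± 10.2), TUBA1A (69.76 ± 21.7) and TUBB2B (10.21 ± 1.85) were the lowest per kilobase of exon. The place of TUBB3 depends on the length used. Divided by coding length, it had 1080 normalized counts per kilobase in siControl, beside 1045 for TUBB2A and 1314 for TUBA4A. In siControl TUBB stood above TUBB4B by coding length too (61040 and 28610 normalized counts per kilobase). Their order depended on the length used only with siADAR1 #1, as given with the composition of the pool. All 10 members passed the filter on low values in the fit across all genes.

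ADAR, the gene that encodes ADAR1, was reduced as the labels say. It had 10906 and 11701 normalized counts in the siControl libraries, 1328 and 2246 with siADAR1 #1, and 1663 and 2928 with siADAR1 #2. The log2FC was -2.71 (SE 0.30, adjusted p-value 0.00295) and -2.35 (SE 0.30, adjusted p-value 0.00128). The siRNAs differed from each other by 0.35 (adjusted p-value 0.404), with overlapping libraries. A gene is called below when its adjusted p-value in limma (Benjamini-Hochberg over the 20858 genes tested) is under 0.05 and its log2FC lies beyond 0.5 in either direction.

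**Figure D1:**
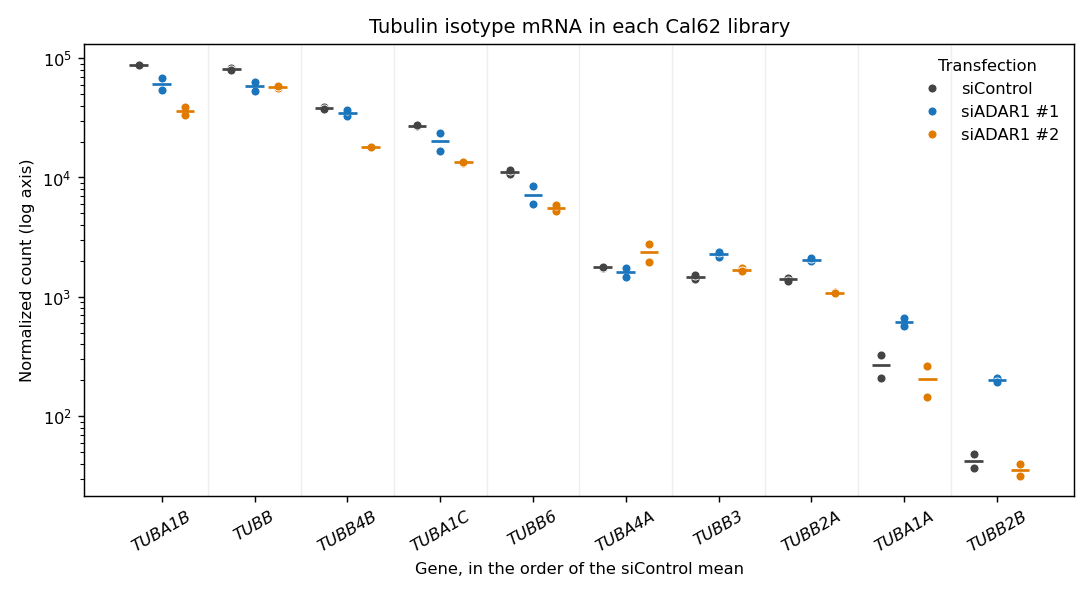
Normalized counts of the 10 tubulin isotypes on a log axis, with 1 point per library and a bar at the mean of the 2 libraries of each transfection. The siADAR1 #1 points of TUBA1A and TUBB2B stand above the siControl and siADAR1 #2 points, and the siADAR1 #2 points of TUBA1B, TUBB4B, TUBA1C and TUBB6 are the lowest of their genes.

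The question of this design is what silencing of ADAR1 does to the transcriptome. With siADAR1 #1, members were called in both directions. TUBB2B, TUBA1A, TUBB3 and TUBB2A rose, and TUBA1B and TUBB6 fell, so that 6 of the 10 members were called (4 higher and 2 lower). Over all genes tested, 16.8% were called in this comparison (6.18% higher and 10.6% lower). The median log2FC of the members was -0.14, beside -0.02 over all genes tested.

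TUBB2B, a beta isotype of developing neurons, had the largest change of the members. Its normalized counts were 37.03 and 47.94 in the siControl libraries, 210.4 and 193.4 with siADAR1 #1, and 31.75 and 39.55 with siADAR1 #2. Only the siADAR1 #1 libraries were high, and the siADAR1 #2 libraries overlapped the control. The log2FC with siADAR1 #1 was 2.19 (SE 0.29, adjusted p-value 0.00406), a level 4.75 times that of siControl, but still the lowest of the 10 members per kilobase (48.54 ± 2.88 normalized counts per kilobase, SD, n = 2).

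TUBA1A, the alpha isotype best known from migrating neurons, was also called with this siRNA alone. It had 208.0 and 325.4 normalized counts in the siControl libraries, 574.2 and 662.0 with siADAR1 #1, and 144.0 and 262.2 with siADAR1 #2. Its log2FC was 1.24 (SE 0.32, adjusted p-value 0.0347) with siADAR1 #1 and -0.42 (SE 0.32, adjusted p-value 0.382) with siADAR1 #2, where the libraries overlapped those of the control.

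TUBB3, the class III beta tubulin used as a marker of neurons, had 1408 and 1515 normalized counts in the siControl libraries, 2153 and 2380 with siADAR1 #1, and 1751 and 1635 with siADAR1 #2. Each of the 4 siADAR1 libraries lay above the control, the siADAR1 #1 pair farther. The log2FC was 0.63 (SE 0.13, adjusted p-value 0.0148) with siADAR1 #1 and 0.21 (SE 0.13, adjusted p-value 0.255) with siADAR1 #2. A readthrough gene with the identifier ENSG00000198211 overlaps 92.8% of the main transcript of TUBB3 on the same strand, and it was listed at 0 reads in all 6 libraries. How reads in the shared bases were assigned is not given in the sources used here. The 0 therefore does not show that TUBB3 kept all of them. TUBB2A had 1444 and 1352 normalized counts in the siControl libraries, 1985 and 2113 with siADAR1 #1, and 1093 and 1077 with siADAR1 #2. The control libraries stood between those of the siRNAs. Its log2FC was 0.55 (SE 0.12, adjusted p-value 0.0212) with siADAR1 #1 and -0.36 (SE 0.12, adjusted p-value 0.0615) with siADAR1 #2.

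TUBA1B and TUBB6 fell with both siRNAs. TUBA1B, the main alpha isotype, had 88418 and 88307 normalized counts in the siControl libraries, 53723 and 68381 with siADAR1 #1, and 33600 and 38778 with siADAR1 #2. The 3 groups did not overlap, and the siADAR1 #2 libraries were the lowest. The log2FC was -0.54 (SE 0.14, adjusted p-value 0.0334) with siADAR1 #1 and -1.29 (SE 0.14, adjusted p-value 7.21e-04) with siADAR1 #2, where the level was 41.0% of that of siControl. TUBB6 had 10744 and 11538 normalized counts in the siControl libraries, 5963 and 8405 with siADAR1 #1, and 5209 and 5862 with siADAR1 #2. The pairs of both siRNAs lay below the control. The log2FC was -0.65 (SE 0.17, adjusted p-value 0.0322) and -1.01 (SE 0.17, adjusted p-value 0.00346).

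The other 4 members were not called with siADAR1 #1. TUBB missed the fold threshold at a log2FC of -0.49 (adjusted p-value 0.0234), and TUBA1C missed the adjusted p-value at -0.44 (0.099). TUBA4A, at -0.15 (95% interval -0.56 to 0.26), and TUBB4B, at -0.13 (95% interval -0.38 to 0.11), had intervals that included 0, and the value of TUBB4B turned to 0.014 with median-centred libraries. The siADAR1 #1 replicates were far apart for several abundant members, as for TUBA1C, at 16678 and 23811 normalized counts.

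The calls with siADAR1 #1 rested on few libraries. Fits that left out 1 library changed the calls over all genes as well, so the log2FC is given for them. TUBA1A lay between 0.92 and 1.56, TUBB3 between 0.56 and 0.70, and TUBB2A between 0.50 and 0.60. TUBA1B lay between -0.72 and -0.37 and TUBB6 between -0.90 and -0.41, both weakest without siADAR1 #1 replicate 1. TUBA1C and TUBB reached -0.70 and -0.61 without siADAR1 #1 replicate 2. TUBB2B was the only member called in each of these fits, with a log2FC between 2.02 and 2.37. TUBA1B was not called with median-centred (-0.40, adjusted p-value 0.0748) or quantile-normalized libraries (-0.33, adjusted p-value 0.164). With median-centred libraries 5 members were thus called (4 higher and 1 lower), and the split over all genes went from 1290 higher and 2212 lower to 1951 higher and 1706 lower.

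With siADAR1 #2, isotypes of both subunits were downregulated and no member was called higher. TUBA1B, TUBA1C, TUBB, TUBB4B and TUBB6 fell, so that 5 of the 10 members were called, all lower. Over all genes tested, 26.6% were called (11.1% higher and 15.5% lower). The median log2FC of the 10 members was -0.47, beside -0.01 over all genes tested.

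TUBB4B, a widely made beta isotype that is also used in cilia, had 39055 and 37497 normalized counts in the siControl libraries, 32897 and 37105 with siADAR1 #1, and 18059 and 18170 with siADAR1 #2. The siADAR1 #2 libraries stood far below the other 4. The log2FC with siADAR1 #2 was -1.08 (SE 0.11, adjusted p-value 5.09e-04), and the level was 47.3% of that of siControl. TUBA1C had 26770 and 27348 normalized counts in the siControl libraries and 13344 and 13387 with siADAR1 #2. The latter were close together and below all others. The log2FC was -1.02 (SE 0.16, adjusted p-value 0.00292). TUBB, the main beta isotype of many dividing cells, had 82645 and 80329 normalized counts in the siControl libraries, 53378 and 62731 with siADAR1 #1, and 55683 and 58072 with siADAR1 #2. The libraries of the siRNAs overlapped each other and lay below the control. Its log2FC with siADAR1 #2 was -0.52 (SE 0.11, adjusted p-value 0.0120), close to the fold threshold.

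TUBA4A, the alpha isotype whose mRNA encodes no final tyrosine, was not called against siControl with either siRNA. It had 1746 and 1794 normalized counts in the siControl libraries, 1734 and 1467 with siADAR1 #1, and 2752 and 1963 with siADAR1 #2. Its siADAR1 #2 libraries were above the control but far apart. The log2FC with siADAR1 #2 was 0.39 (SE 0.18, adjusted p-value 0.142). Without siADAR1 #2 replicate 2, TUBA4A was called higher at 0.64 (adjusted p-value 0.0405).

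The 4 members TUBA1B, TUBA1C, TUBB4B and TUBB6 were called with siADAR1 #2 in each fit that left out 1 library. TUBB was not called without siControl replicate 1, siADAR1 #2 replicate 1 or siADAR1 #2 replicate 2, with a log2FC between -0.55 and -0.49 in the 6 such fits. With quantile-normalized libraries it was at -0.17 (adjusted p-value 0.298) and was not called.

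**Figure D2:**
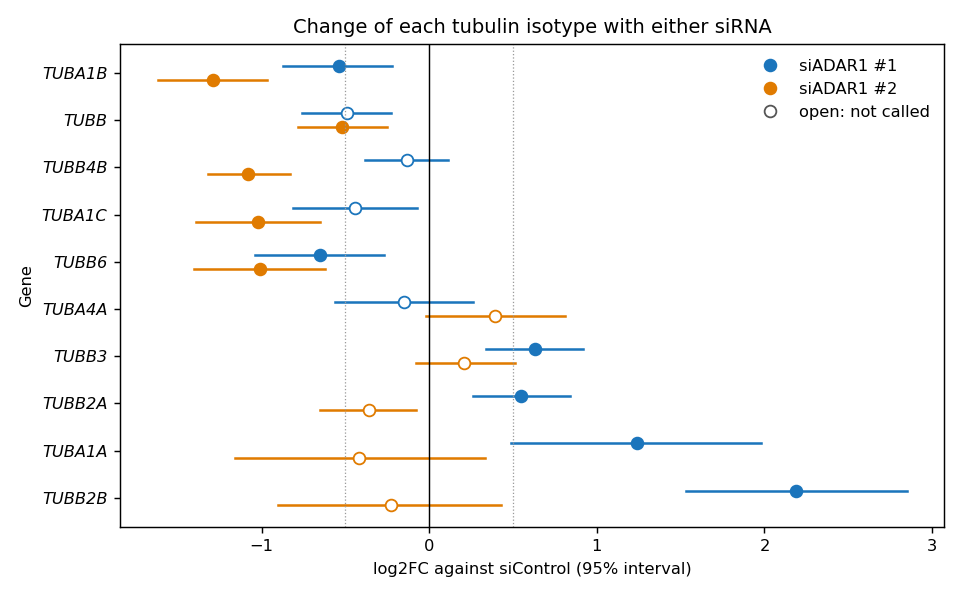
The log2FC of each tubulin isotype against siControl with its 95% interval, for siADAR1 #1 and siADAR1 #2. Filled points were called, open points were not, and dotted lines mark the fold threshold of 0.5. The siADAR1 #2 points of the 5 genes at the top lie below -0.5, and the siADAR1 #1 points of the 4 genes at the bottom lie above 0.5.

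The siRNAs share the siControl libraries, so the difference between them was tested directly. Of the 10 members, 7 were called between siADAR1 #2 and siADAR1 #1, 1 higher and 6 lower with siADAR1 #2. Over all genes tested, 32.8% were called (16.7% higher and 16.1% lower). TUBB2B (-2.43, adjusted p-value 6.62e-04) and TUBA1A (-1.65, adjusted p-value 0.00565) differed most. TUBB4B (-0.95, adjusted p-value 5.64e-04), TUBB2A (-0.92, adjusted p-value 0.0012), TUBA1B (-0.75, adjusted p-value 0.00475) and TUBA1C (-0.58, adjusted p-value 0.0249) were also lower with siADAR1 #2, and TUBA4A was higher (0.54, adjusted p-value 0.0466).

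TUBB, TUBB3 and TUBB6 were not called between the siRNAs. For TUBB the difference was -0.03 with a 95% interval of -0.29 to 0.24, and its sign turned with quantile normalization (0.11). TUBB3 passed the adjusted p-value (0.034) but not the fold threshold at -0.42, and TUBB6 was at -0.36 (95% interval -0.74 to 0.03). TUBA1A, TUBA1B, TUBB2A, TUBB2B and TUBB4B were called in all 6 fits that left out 1 library. TUBA1C was not called without siADAR1 #1 replicate 2, siADAR1 #2 replicate 1 or siADAR1 #2 replicate 2. TUBA4A was called only without siADAR1 #2 replicate 2 among these fits, and was also not called in 5 of the 12 other alternatives. TUBB6 was called lower only without siADAR1 #1 replicate 1 (-0.60, adjusted p-value 0.02). With median-centred libraries, the split over all genes went from 3488 higher and 3350 lower to 2854 higher and 4274 lower. That scaling moved the median log2FC of all genes from 0.00 to -0.13 in this comparison, and from -0.02 to 0.12 for siADAR1 #1 against siControl.

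Averaged over the siRNAs within the same fit, 6 members were called, 1 higher and 5 lower. The falls were -0.92 for TUBA1B (adjusted p-value 0.00368), -0.83 for TUBB6 (0.0076), -0.73 for TUBA1C (0.0104), -0.61 for TUBB4B (0.00508) and -0.51 for TUBB (0.0115). The average rise of TUBB2B, 0.98 (0.0283), came from siADAR1 #1, the only siRNA with which it was called. Over all genes tested, 17.2% were called on this average (6.04% higher and 11.1% lower). With the 4 siADAR1 libraries treated as a single group, limma called 0 members and 0 genes, and 4 members and 2916 genes had an unadjusted p-value under 0.05.

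The pool as a whole became smaller and changed in makeup. The 10 members together held 0.471% and 0.53% of the reads on genes in the siControl libraries, 0.362% and 0.432% with siADAR1 #1, and 0.292% and 0.316% with siADAR1 #2. The 3 groups did not overlap. The summed level per kilobase of the alpha members was 70.9% of that of siControl with siADAR1 #1 and 44.1% with siADAR1 #2, and that of the beta members was 81.1% and 58.8%. A lower summed level cannot be told apart from a larger amount of other RNA, since the values are relative to each library.

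The share of each isotype in its pool is given as a description, and no test was run on it. TUBA1B made up 78.9% ± 0.32 of alpha tubulin mRNA per kilobase (SD, n = 2) in siControl, 76.9% ± 0.79 with siADAR1 #1 and 73.2% ± 2.6 with siADAR1 #2. TUBA4A held 1.51% and 1.54% of this pool in the siControl libraries, 2.42% and 1.58% with siADAR1 #1, and 5.65% and 3.67% with siADAR1 #2. The siADAR1 #2 libraries of TUBA4A were above all others but apart from each other.

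TUBB and TUBB4B make up most of the beta pool, so the share of either depends on the level of the other. TUBB held 47.3% of beta tubulin mRNA per kilobase in both siControl libraries, 41.2% and 41.8% with siADAR1 #1, and 55.9% and 56.4% with siADAR1 #2. TUBB4B held 44.7% and 44.1% in the siControl libraries, 50.8% and 49.4% with siADAR1 #1, and 36.2% and 35.3% with siADAR1 #2. The 3 groups did not overlap for either gene. The level of TUBB itself was 14260 normalized counts per kilobase with siADAR1 #1 and 13970 with siADAR1 #2, whereas that of TUBB4B was 17180 and 8893. Divided by coding length in place of the union of exons, the share of TUBB in siControl was 61.0% and that of TUBB4B 28.6%, so the order with siADAR1 #1, 55.5% and 33.4%, was the reverse of that per kilobase of exon. The direction of both genes' shares with each siRNA was the same on these scales.

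**Figure D3:**
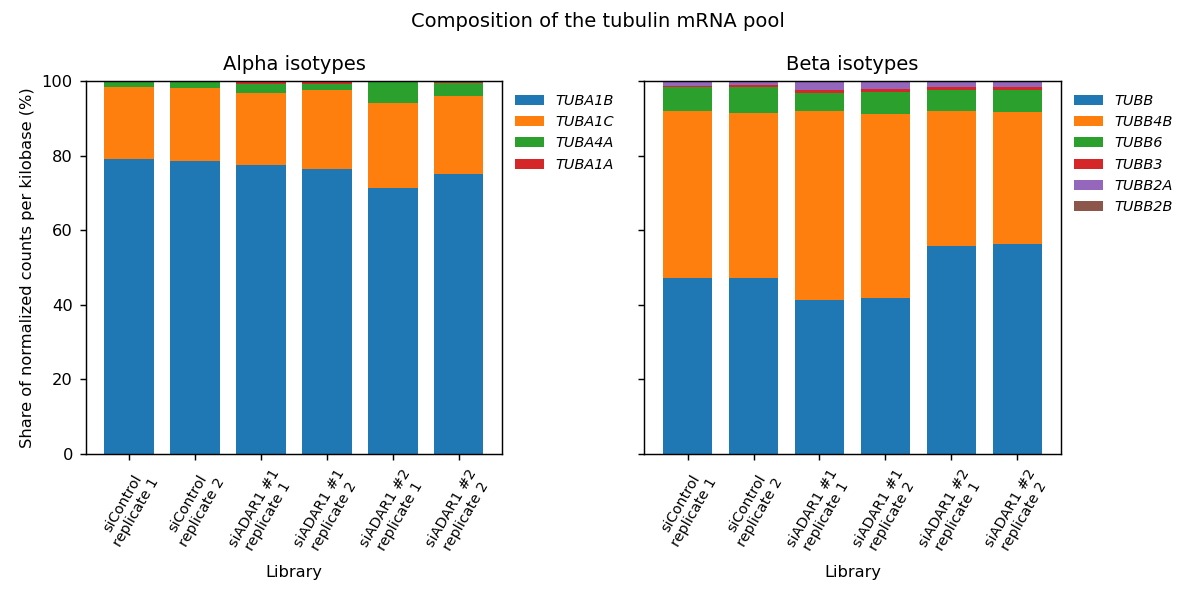
Share of each isotype in the alpha (left) and beta (right) tubulin mRNA of each library, in percent of normalized counts per kilobase of exon, as stacked bars that add up to 100. The TUBB segment is smallest with siADAR1 #1 and largest with siADAR1 #2, and the TUBA4A segment is widest with siADAR1 #2.

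Overlapping transcripts moved with some members and against others. TUBA1B-AS1, a long noncoding RNA on the opposite strand, covers 72.6% of the main transcript of TUBA1B, and 66.6% of the 75-base windows of that transcript occur in it. It had 568.4 and 891.5 normalized counts in the siControl libraries, 721.9 and 574.1 with siADAR1 #1, and 237.0 and 276.8 with siADAR1 #2. Its log2FC with siADAR1 #2 was -1.47 (adjusted p-value 0.00366), in the same direction as TUBA1B. With siADAR1 #1, where TUBA1B was called lower, it was at -0.14 (adjusted p-value 0.733) with overlapping libraries. ENSG00000258232, opposite to 23.6% of the main transcript of TUBA1C, had 6128 and 6992 normalized counts in the siControl libraries and 2858 and 3167 with siADAR1 #2 (log2FC -1.12, adjusted p-value 0.00118). STK16, a kinase gene opposite to 30.6% of the main transcript of TUBA4A, was not called with either siRNA. ENSG00000272540, opposite to 21.4% of the main transcript of TUBB, was at 0.83 with siADAR1 #1 (adjusted p-value 0.163), against the direction of TUBB. MDC1, which shares 13 exon bases with TUBB, was called higher with siADAR1 #1 (0.64) and lower with siADAR1 #2 (-0.97). BPHL, which shares 82 with TUBB2A, was called lower with siADAR1 #1 (-0.90), where TUBB2A rose. Whether reads were counted by strand is not given in the sources used here, so a member and its opposite-strand neighbour cannot be told apart in the shared bases. Reads on tubulin pseudogenes were few. Of 51 such genes, 34 had a read in any library, their summed normalized count per library lay between 129 and 282, and the highest, TUBBP1, had a mean of 69.7.

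Promoters are shown for 4 of the 5 members that fell with siADAR1 #2, namely those that held a match to a motif marked below. TUBA1B, which fell the most, held none and is not shown. Sequences of 300 bases, from 250 before to 50 after the RefSeq start (GRCh38.p14), were found for all 10 members. They were searched on both strands for CCAAT, the core of the binding site of the factor NF-Y, and for TTTGAA, a form of the cell cycle homology region found in promoters of mitotic genes. A further search was for GGGCGG, which is not marked in the lines below. Each line gives the stretch upstream of the start that spans the CCAAT and TTTGAA matches with up to 10 flanking bases. It runs 5′ to 3′ in the direction of transcription, with these matches on either strand in capitals.
TUBB4B, chr9:137241037-137241198 (plus strand): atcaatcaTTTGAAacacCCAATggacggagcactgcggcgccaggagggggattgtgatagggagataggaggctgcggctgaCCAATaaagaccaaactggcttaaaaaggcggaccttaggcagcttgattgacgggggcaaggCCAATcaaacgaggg
TUBA1C, chr12:49264894-49264936 (plus strand): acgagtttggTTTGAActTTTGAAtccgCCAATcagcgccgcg
TUBB, chr6:30720177-30720201 (plus strand): ggctcagaggCCAATggacgcctgg
TUBB6, chr18:12308163-12308187 (plus strand): gcccgcagccATTGGcgagcggcgg
TUBB4B had 3 CCAAT matches and 1 TTTGAA match, and TUBA1C had 1 and 2. TUBB and TUBB6 had 1 CCAAT match each and no TTTGAA, and TUBA1B had neither but held 3 GGGCGG matches. CCAAT was found in 7 of the 10 member promoters and in 34.6% of the 35116 promoters of the table, and TTTGAA in 2 of 10 and in 15.2%. GGGCGG was found in 8 of 10 and in 45.0%. TUBA1A, TUBB2B and TUBB3, which were called higher with siADAR1 #1, also held CCAAT. These matches describe the letters of the windows only.

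Genes that fold, modify, nucleate or bind tubulin were counted from lists written from general knowledge. Their counts stand beside the shares of all genes tested, which were 6.18% higher and 10.6% lower with siADAR1 #1, and 11.1% higher and 15.5% lower with siADAR1 #2. Of the other tubulins, 7 of 12 listed genes were tested. TUBG1, the gamma tubulin of the nucleating ring complex, fell with both siRNAs (-0.52, adjusted p-value 0.0292, and -0.92, adjusted p-value 0.00173), from 4235 and 4341 normalized counts to 2732 and 3291 and to 2215 and 2304. It was the only gene of this list called with siADAR1 #1, and 1 other gene, TUBA3D (named after its value was seen), was called lower with siADAR1 #2. TUBA3C, TUBA3E, TUBAL3 and TUBB8 had at most 2 reads in any library.

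The folding list holds prefoldin, the CCT chaperonin and the tubulin cofactors. With siADAR1 #1, 2 of 21 genes rose and 2 fell, and with siADAR1 #2, 0 rose and 4 fell, beside 16.8% and 26.6% of all genes called in either direction. ARL2, a small GTPase that regulates the tubulin cofactors, had 4445 and 3798 normalized counts in the siControl libraries, 327.3 and 881.8 with siADAR1 #1, and 1270 and 1639 with siADAR1 #2. It fell with both siRNAs (-2.93, adjusted p-value 0.00431, and -1.51, adjusted p-value 0.0232). PFDN4, a prefoldin subunit, rose with siADAR1 #1 (0.82, adjusted p-value 0.00898) and fell with siADAR1 #2 (-0.53, adjusted p-value 0.0256). CCT2, a subunit of the chaperonin that folds tubulin, was not called against siControl.

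The 3 genes of tubulin mRNA autoregulation were all tested. CNOT11, a subunit of the CCR4-NOT deadenylase, fell with both siRNAs (-0.87, adjusted p-value 0.00568, and -0.66, adjusted p-value 0.00692). TTC5, which recognizes nascent tubulin, was at 0.32 (adjusted p-value 0.237) and -0.50 (adjusted p-value 0.059), and SCAPER, which links it to the deadenylase, was at -0.14 with both. Neither was called against siControl.

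Of 22 tested genes listed for the modification of tubulin tails or lysines, 2 rose and 3 fell with siADAR1 #1, and 6 rose and 5 fell with siADAR1 #2. Of all genes tested, 16.8% were called with siADAR1 #1 and 26.6% with siADAR1 #2. MATCAP1, a protease that removes the last tyrosine of alpha tubulin, rose with both siRNAs. It had 102.4 and 103.0 normalized counts in the siControl libraries, 158.0 and 209.8 with siADAR1 #1, and 734.8 and 632.8 with siADAR1 #2 (log2FC 0.81, adjusted p-value 0.0389, and 2.70, adjusted p-value 3.38e-04). TTLL7, a glutamylase of beta tubulin tails, fell with both (-1.51, adjusted p-value 0.00323, and -0.72, adjusted p-value 0.0192), as did the deacetylase SIRT2 (-0.81, adjusted p-value 0.0206, and -0.80, adjusted p-value 0.0133).

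Of 18 tested structural microtubule-associated proteins, 3 rose and 1 fell with siADAR1 #1, and 1 rose and 4 fell with siADAR1 #2. MAP1B, a neuronal microtubule-associated protein, rose with siADAR1 #1 (0.85, adjusted p-value 0.0213) and fell with siADAR1 #2 (-0.95, adjusted p-value 0.00865), and the siRNAs differed by -1.80 (adjusted p-value 4.94e-04). Of 22 tested regulators of microtubule dynamics, 2 rose and 2 fell with siADAR1 #1, and 3 rose and 6 fell with siADAR1 #2. Of the 18 nucleation genes, 0 rose and 4 fell with siADAR1 #1, and 0 rose and 11 fell with siADAR1 #2, with a median log2FC of -0.29 and -0.62. Beside these 3 lists, 10.6% of all genes tested were called lower with siADAR1 #1 and 15.5% with siADAR1 #2, and 6.18% and 11.1% were called higher.

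**Figure D4:**
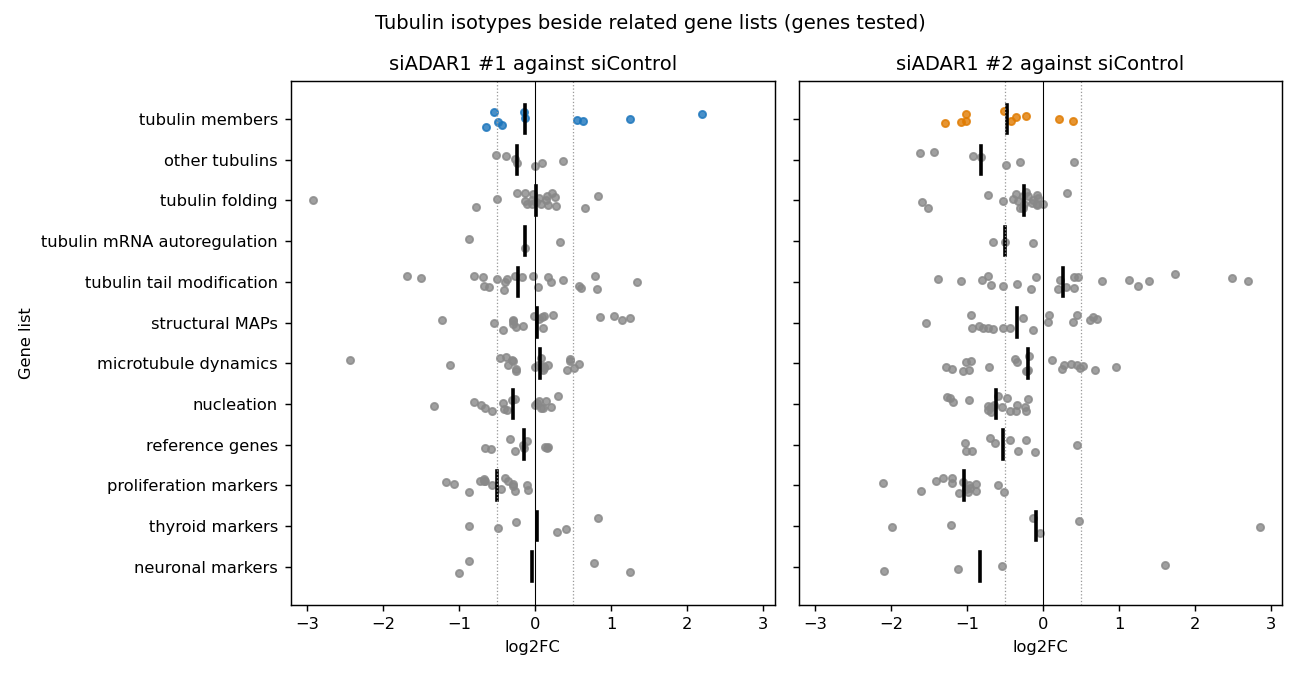
The log2FC against siControl of the tubulin isotypes (coloured) and of the tested genes of each related list (grey), with a black bar at the list median and dotted lines at -0.5 and 0.5, for siADAR1 #1 (left) and siADAR1 #2 (right). Points are spread vertically for legibility. The proliferation markers have the lowest medians among the lists (-0.51 and -1.04), and the tubulin isotypes have medians of -0.14 and -0.47.

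Markers of dividing cells were counted beside the tubulins. Of 16 proliferation markers, 7 fell and 0 rose with siADAR1 #1, and 16 fell and 0 rose with siADAR1 #2, beside 10.6% and 15.5% of all genes called lower. Their summed normalized count ranged from 248124 to 264976 in siControl, from 159978 to 179073 with siADAR1 #1, and from 104836 to 121370 with siADAR1 #2. MKI67 fell with both siRNAs (-1.07, adjusted p-value 0.0073, and -2.11, adjusted p-value 3.51e-04). None of the 16 was at 0. Their part in the changes of the tubulins was not tested. Of 10 reference genes often used to scale expression, 0 rose with either siRNA, 2 fell with siADAR1 #1 and 5 fell with siADAR1 #2. Of all genes tested, 10.6% and 15.5% were called lower in these comparisons. ACTB, the gene of beta actin, was at -0.33 (adjusted p-value 0.105) and -0.94 (adjusted p-value 0.0014).

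TUBA1A, TUBB2B and TUBB3 are also markers of neurons, so other neuronal genes were counted beside them. Of 8 listed markers 4 were tested, of which 1 rose and 1 fell with siADAR1 #1, and 1 rose and 2 fell with siADAR1 #2. Of all genes tested, 6.18% were called higher and 10.6% lower with siADAR1 #1, and 11.1% and 15.5% with siADAR1 #2. NEFL and ELAVL4 had 0 reads in every library, which allows up to 3 reads each, and NEFM had 1 read in all. The summed level was set by NEFH, a neurofilament gene at 41627 normalized counts in siControl, and ranged from 41329 to 42176 in siControl, from 22357 to 23643 with siADAR1 #1, and from 17810 to 20735 with siADAR1 #2. Their part in the rise of these isotypes was not tested. SNAP25, a synaptic gene, rose with siADAR1 #1 (1.25, adjusted p-value 0.0338) and fell with siADAR1 #2 (-2.10, adjusted p-value 0.00258). NEFH fell with both siRNAs (-0.87, adjusted p-value 0.00404, and -1.12, adjusted p-value 5.37e-04). The marker called higher with siADAR1 #2 was SYP. Of the thyroid markers, NKX2-1 had 0 reads in every library, and TG had at most 55. PAX8, a thyroid transcription factor also made in other epithelia (named after its value was seen), had a mean of 14900 normalized counts in siControl. It fell with siADAR1 #2 (-1.99, adjusted p-value 0.00354) and was not called with siADAR1 #1 (-0.26, adjusted p-value 0.644). Of the 6 thyroid markers tested, 0 were called with siADAR1 #1, and 2 fell with siADAR1 #2. The shares over all genes given above stand beside these counts.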

How the data were processed

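RNA was sequenced from Cal62 cells in 3 transfections with 2 replicates each. The submitters list 1 sample per transfection, and the 2 columns of each were taken as the biological replicates named in the methods. The authors counted 75-base paired-end reads on genes of GRCh38 with featureCounts, ran Salmon in parallel, and normalized with DESeq2, with a stated preference for gene counts from Salmon. The authors deposited log2 values, and the transformation behind them is not given in the sources used here. It was inferred from the values as a variance-stabilizing one with the same curve in each library, and undoing it gave whole reads for 100% of values (tolerance 0.1) and the normalized counts printed here. TUBB2B, the lowest member, rested on 27 to 225 reads per library. Limits from counts cover counting error only.

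Comparisons used the R package limma (version 3.58.1, under R 4.3.3) with a mean-variance trend in eBayes (3 groups, 3 residual degrees of freedom, two-sided, Benjamini-Hochberg). Genes with a mean log2 value of at least log2 of 10 were tested, which is 7.617 normalized counts, and 20858 passed. Intervals are 95% intervals of the fit. The code was tested on simulated data. Isotype shares are normalized counts divided by the union of exons in GENCODE release 44 (57830 identifiers had a symbol), as a percent of the alpha or beta sum. Windows, tails and promoters were read from GENCODE and RefSeq with Biopython 1.88 in Python 3.11.15.

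The members and lists were chosen with earlier results of these data known. Named genes are the 10 members, ADAR, genes that overlap a member or share its sequence, and at most 3 genes of each list, those with the smallest value of the larger of their adjusted p-values against siControl. Alternatives were other filters, scalings, spread models, value scales (pseudocounts of 1 and 4, voom), groupings, gene lengths, a replicate block and leaving out each library. The share by main transcript length was added after seeing the data. Some tail-coding ends and the level of 1 listed marker are not reported here.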

Additional observations from a re-analysis of the deposited data

Results flagged for a closer look

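The change against siControl differed between the siRNAs for 7 of the 10 tubulin isotypes, by limma's test of siADAR1 #2 against siADAR1 #1, beside 32.8% of all genes tested. TUBB2B rose with siADAR1 #1 alone, and its log2FC differed by -2.43 between the siRNAs. TUBA1A (-1.65) and TUBB2A (-0.92) were likewise called higher with siADAR1 #1 and not called with siADAR1 #2. TUBA1B fell with both and by more with siADAR1 #2 (-0.75). TUBB4B (-0.95) and TUBA1C (-0.58) were called lower with siADAR1 #2 and not called with siADAR1 #1. TUBA4A (0.54, adjusted p-value 0.0466) was called with neither siRNA against siControl, and its difference was not called in 5 of 12 alternatives, among them no filter, median-centred and quantile-normalized libraries. The adjusted p-value of ADAR for the same difference was 0.404.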

How the results depend on the processing

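The number of members called with siADAR1 #1 went from 6 to 3 with no filter on low values and to 1 by eBayes without a trend, where 1347 genes were called in all in place of 3502. With the siADAR1 libraries as 1 group, 0 members and 0 genes were called, which joins libraries that differ from each other, and TUBA4A (0.12), TUBA1A (0.41), TUBB2A (0.093) and TUBB2B (0.98) took the sign opposite to that with 1 of the siRNAs. The average of the siRNA changes gave the same values for these genes and 3585 calls, in place of 5541 with siADAR1 #2. TUBB4B turned to 0.014 with siADAR1 #1 in median-centred libraries, and TUBB to 0.11 between the siRNAs in quantile-normalized libraries. With 1 library left out, so that the lone sample of its group was assumed to vary like the others, the members called with siADAR1 #1 ranged from 1 to 6 and all genes from 392 to 3680, and all genes with siADAR1 #2 from 3150 to 5758. In these fits TUBA1A with siADAR1 #2 ranged from -0.84 to 0.011 and TUBB between the siRNAs from -0.14 to 0.091. The cause of these changes was not tested. The share of TUBA1B in siControl was 75.1% by coding length, 72.7% by the longest transcript, 75.2% with no division by length and 83.7% by the main transcript, and that of TUBB was 61.0%, 49.1%, 60.9% and 50.2%. Differences between replicates had correlations of 0.106 to 0.162 between groups, and the replicate block changed no call of a member (6, 5 and 7 called). Of the 580 other values of single members, 500 kept their direction and side of the threshold, 59 lost their call, 8 gained one and 13 changed sign. With 2 libraries a group, the number of replicates limits the precision.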
